A study of Mus musculus with 6 samples.

Results

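The genes described here are those of the MYC, MAX and MXD network, 10 genes that encode MYC proteins, their dimer partners and the repressors that compete with them: Myc, Mycn, Max, Mxd1, Mxd3, Mxd4, Mxi1, Mnt, Mlx and Mga. They were taken by name, through every probe set of the array that the platform annotation gives to exactly 1 of these symbols. This gave 26 probe sets of 45037 tested, for 10 of 18193 genes. Expression was measured on 6 arrays of mouse haematopoietic stem and progenitor cells (HSPCs), bone marrow cells sorted as lacking lineage markers and carrying c-Kit and Sca1. The 3 Med12 KO arrays came from Med12Flox;MxCre mice, which carry a floxed Med12 allele and a Cre recombinase under the interferon-inducible Mx promoter. The 3 control arrays came from control mice whose genotype, including whether they carried Cre, the labels do not give. All mice were of the strain background B6/129 and had received pI:pC, a synthetic RNA that induces interferon, 4 days before their cells were collected. Nothing in the labels ties each array to its own animal, and p-values therefore reflect the spread between these arrays alone, which may be technical.

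MYC proteins bind DNA as dimers with MAX at the sequence known as the E-box and promote transcription of genes for cell growth, ribosome production and metabolism. MXD proteins, MXI1 and MNT also dimerise with MAX, bind the same sequence and recruit the SIN3 and histone deacetylase complex, which represses transcription. MLX is a MAX-like protein that pairs with MNT, with some MXD proteins and with the nutrient sensors MLXIP and MLXIPL, and MGA joins MAX to a Polycomb-type repressor complex. In the marrow, Myc and Mycn are known to be needed together for the survival and division of stem cells, and Mxd genes are known to be expressed as blood cells leave the cycle and mature.

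The study asked which genes depend on Med12, a subunit of the kinase module of the transcriptional complex Mediator. Med12 itself had signals of 89.1, 100.4 and 86.4 on the Med12 KO arrays, against 278.6, 837.4 and 441.6 on the control arrays. The log2 difference was -2.17 (SE 0.38), and its adjusted p of 0.0796 in limma did not pass the threshold of 0.05. It is not known here whether its single probe set reads the sequence that Cre removes. The median signal of an array was 16.5 to 21.3 in Med12 KO cells and 26.7 to 26.9 in control cells. Differences below are of log2(signal + 16), Med12 KO minus control, so dim probe sets show less than their full change. The summed signal of 6 surface marker genes of stem and progenitor cells (Kit, Cd34, Cd48, Flt3, Procr and Slamf1) was 2316.9 to 2969.6 in Med12 KO cells and 5386.3 to 8158.6 in control cells. Of these 6, Slamf1, a stem cell marker, had the opposite sign, 0.49 (SE 0.42), and Ly6a, which encodes Sca1, was not analysed here. Kit, which encodes c-Kit, averaged 563 ± 51.7 in Med12 KO cells and 1082 ± 316 in control cells (SD, n = 3 each). The summed signal of 5 lineage genes (Cd3e, Cd4, Cd8a, Itgam and Cd5) was 48.8 to 116.4 in Med12 KO cells and 118.3 to 192.4 in control cells.

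No network probe set passed limma's test, and the repressor gene Mxd4 came nearest. Of the 26 probe sets, 0 passed at an adjusted p of 0.05, where 0.762% of all probe sets did, 0.22% higher and 0.542% lower in Med12 KO cells. At an unadjusted p under 0.05 there were 9, against 15.7% of all probe sets, and 8 of these 9 were lower and 1 higher in Med12 KO cells, beside 9.89% and 5.81% of all probe sets. After median centring the count was 5 of 26, or 19.2%, beside 19.4% of all probe sets. With 4 added in place of 16 it was 6 of 26, or 23.1%, beside 14.6%. Without the dimmest 25% of probe sets it was 6 of 25, or 24.0%, beside 17.7% of those left. Without the dimmer 50% it was 6 of 22, or 27.3%, beside 20.8%. The same 9 probe sets had groups that did not overlap, as did 20.9% of all probe sets; all Med12 KO values lay below all control values for 13.3% of all probe sets and above them for 7.61%. Taken by gene, each through its probe set of highest mean signal, Myc, Mxd4, Mnt and Mga lay wholly below control and Mlx wholly above it. These are 5 of 10 genes, beside 23.4% of all genes, and the same 5 had an unadjusted p under 0.05, as did 18.2% of all genes. These counts rest on the choice of probe set: with the probe sets of each gene averaged, only Myc and Mxd4 had an unadjusted p under 0.05 in limma, 2 of 10 beside 19.4% of all genes. The median difference of the 10 genes was -0.48, beside -0.05 over all genes, a gap of -0.42. Over all 26 probe sets the median was -0.15, beside -0.07 over all probe sets, and with probe sets averaged the gap between genes was -0.28. After quantile and loess normalization it was -0.54 and -0.55. Centring each array on its median, which shifts all genes alike and so leaves the gap as it is, moved the median of all genes to 0.22 and that of the network to -0.20.

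**Figure D1:**
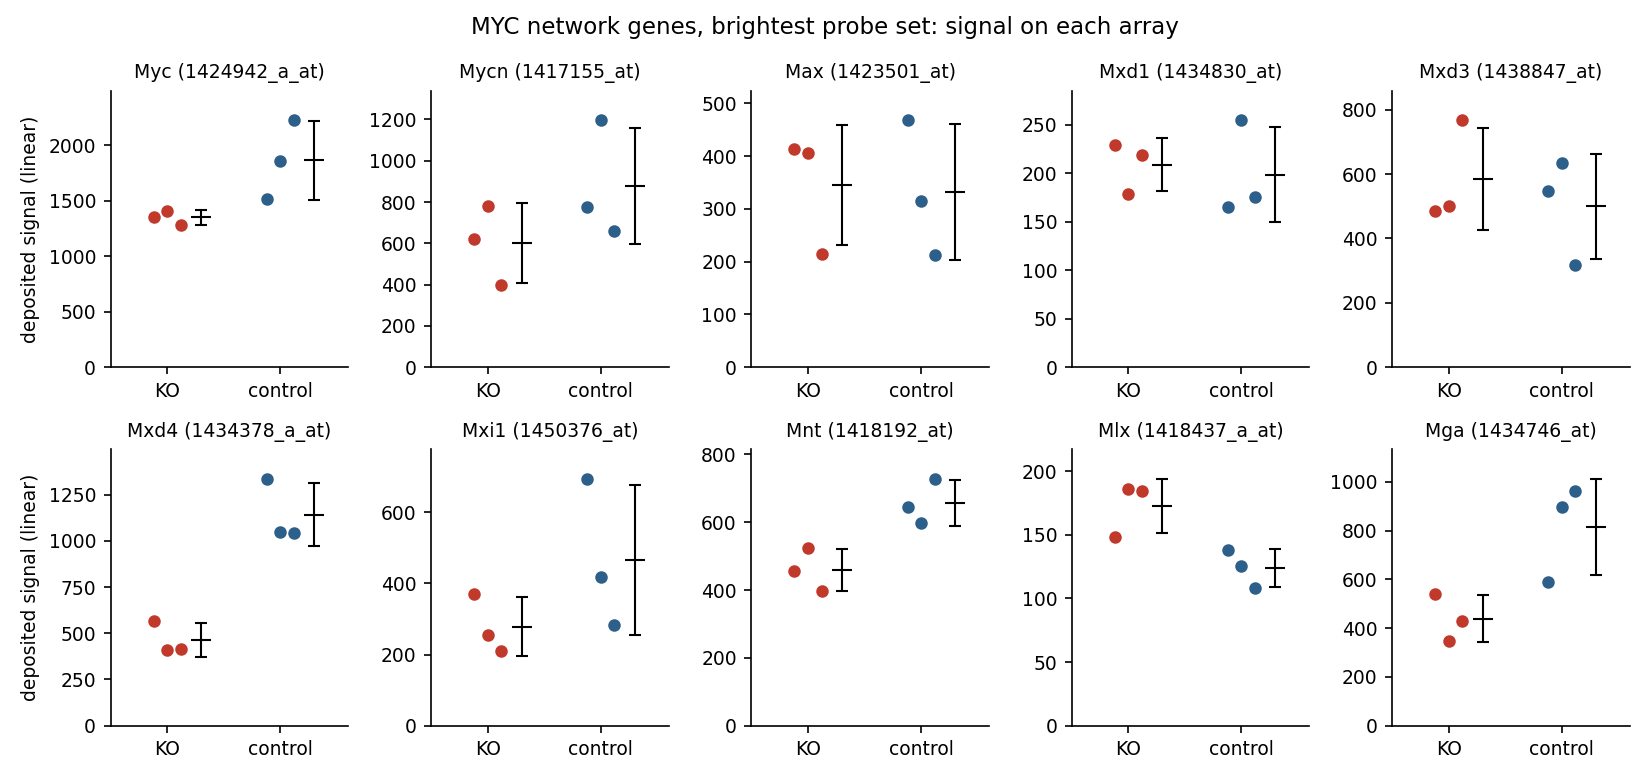
Deposited signal (linear scale, from 0) on each array for the 10 network genes, through the probe set of highest mean signal; red points are Med12 KO arrays, blue points control arrays, and black bars the mean ± SD of 3 arrays. The groups do not overlap for Myc, Mxd4, Mnt, Mlx and Mga, and they overlap for Mycn, Max, Mxd1, Mxd3 and Mxi1.

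The shared binding sequence of these proteins was looked up in the promoters of the network genes, since the family is known to bind its own members' genes. RefSeq windows (GRCm38.p6) of 250 bases before and 50 after a gene's start were used. The E-box letters CACGTG, which read the same on both strands, lie in the windows of 4 of the 9 network genes that have one: Mxd4, Mnt, Max and Mlx. Of all 27025 genes with such a window, 8.09% hold them in at least 1 window, and of all 32851 windows, 7.15% do. In Mxd4 they begin 219 bases upstream of the start, in Mnt 123, in Mlx 40 and in Max 3. The whole windows of Mxd4 (chr5:34187661-34187960, minus strand) and Mnt (chr11:74830674-74830973, plus strand) are shown because both genes lay wholly below control. For Mlx (chr11:101087233-101087272, plus strand), which lay above control, and Max (chr12:76962229-76962268, minus strand), whose groups overlapped, 40 bases around the E-box are shown. The capitals mark CACGTG, and each sequence runs 5′ to 3′.
Mxd4: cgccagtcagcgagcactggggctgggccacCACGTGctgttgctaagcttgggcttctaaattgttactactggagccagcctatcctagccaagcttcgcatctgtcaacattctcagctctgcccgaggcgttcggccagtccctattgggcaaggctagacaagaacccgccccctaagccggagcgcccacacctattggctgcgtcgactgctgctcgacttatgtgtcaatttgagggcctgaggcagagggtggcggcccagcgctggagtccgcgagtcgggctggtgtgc
Mnt: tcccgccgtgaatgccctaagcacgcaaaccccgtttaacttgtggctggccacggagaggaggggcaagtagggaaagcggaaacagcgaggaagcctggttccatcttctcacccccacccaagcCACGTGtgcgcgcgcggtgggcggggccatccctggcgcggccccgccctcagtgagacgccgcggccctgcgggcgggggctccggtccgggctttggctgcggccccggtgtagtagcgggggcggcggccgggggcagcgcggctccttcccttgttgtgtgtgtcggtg
Mlx: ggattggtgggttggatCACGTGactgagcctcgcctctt
Max: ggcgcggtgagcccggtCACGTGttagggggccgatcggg

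Mxd4 and Mnt, both lower, and Mlx, higher, share these letters, and Mga, also lower, has none in its window. A match describes the sequence and shows no binding.

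Myc encodes the founding member of the family, a transcription factor that drives growth and division. Its single probe set had signals of 1353.2, 1410.6 and 1283.2 in Med12 KO cells, against 1513.3, 1858.4 and 2226.3 in control cells. The Med12 KO arrays lay close together and all below the control arrays, whose values were spread more widely. Mean signals were 1349 ± 63.8 and 1866 ± 357 in Med12 KO and control cells (SD, n = 3 each). The log2 difference was -0.45 (SE 0.17). The adjusted p of 0.291 in limma did not pass, and the 95% interval of the difference ran from -0.87 to -0.03. Myc stayed lower under all 16 other settings in which its probe set was fitted, at -0.59 to -0.17, and at -0.54 to -0.27 relative to the median of all genes.

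Mycn, the close relative of Myc that was first found in neuroblastoma, was read by 3 probe sets. The brightest had signals of 619.9, 782.8 and 398.0 in Med12 KO cells, against 776.2, 1196.8 and 659.1 in control cells. The second Med12 KO array lay above 2 of the control arrays, so the groups overlapped, and the log2 difference of -0.54 (SE 0.33) had an adjusted p of 0.495 in limma. The next had signals of 151.5, 133.8 and 122.0 in Med12 KO cells and 201.6, 225.5 and 234.7 in control cells. Here the groups did not overlap, with means of 136 ± 14.8 and 221 ± 17.1 (SD, n = 3 each) and a log2 difference of -0.64 (SE 0.13; limma adjusted p = 0.105). The third probe set stayed at or under 10.4 on every array, where the added 16 dominates the value.

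Mycl, a further MYC gene, is known for its expression in dendritic cells and is given here as a gene of the wider network. Its brightest probe set had signals of 1.3, 1.8 and 0.8 in Med12 KO cells, against 66.4, 23.2 and 48.5 in control cells. The Med12 KO arrays were near 0 and all below the control arrays, and the log2 difference of -1.78 (SE 0.28) had an adjusted p of 0.0652 in limma. Because the signals are so low, the size depends on the added number: it was -3.14 with 4 added (limma adjusted p = 0.0340) and -0.73 with 64 added (0.124). Mycl passed limma's test in 3 of the 15 other settings in which this probe set was fitted. It did not pass with any 1 array left out (adjusted p = 0.0609 to 0.194). The other 2 probe sets had differences of -0.83 and -0.24 and overlapping groups.

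Max encodes the shared partner with which MYC, MXD, MNT and MGA proteins bind the E-box. Its single probe set had signals of 414.2, 406.6 and 214.2 in Med12 KO cells, against 468.2, 315.8 and 212.5 in control cells. The spread within each group was wide and the groups overlapped throughout, with a log2 difference of 0.06 (SE 0.37; limma adjusted p = 0.963). The 95% interval ran from -0.84 to 0.97, so a change of either sign within it could not be detected. The sign turned to negative without control replicate 3, without Med12 KO replicate 1 and without Med12 KO replicate 2, the lowest of these values being -0.21.

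Mlx, the MAX-like partner, was the network gene with the most positive difference. Its brighter probe set had signals of 147.9, 186.0 and 184.1 in Med12 KO cells, against 138.2, 125.7 and 108.5 in control cells. All Med12 KO arrays lay above all control arrays, with means of 173 ± 21.5 and 124 ± 14.9 (SD, n = 3 each) and a log2 difference of 0.43 (SE 0.15; limma adjusted p = 0.257). It was higher under all 16 other settings, at 0.33 to 0.70. Its other probe set had a difference of 0.13 (SE 0.27) and overlapping groups, since control replicate 3 at 144.3 lay above the Med12 KO arrays, which were at 90.2 to 116.8.

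Mxd4, whose promoter window is printed above, encodes a MAX-binding repressor that is known from mouse tissues to be expressed in cells that differentiate. Its brightest probe set had signals of 568.0, 410.6 and 412.4 in Med12 KO cells, against 1336.8, 1049.0 and 1041.2 in control cells. All Med12 KO values were below all control values, with a wide gap between the groups. Means were 464 ± 90.4 and 1142 ± 168 in Med12 KO and control cells (SD, n = 3 each). The log2 difference was -1.28 (SE 0.19), or 2.43-fold lower on the scale with 16 added. The adjusted p of 0.0560 in limma missed the threshold.

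A pair of further Mxd4 probe sets gave the same picture. One had signals of 50.9, 50.5 and 36.6 in Med12 KO cells, against 128.8, 121.6 and 100.7 in control cells, a log2 difference of -1.10 (SE 0.16; limma adjusted p = 0.0545). The other had signals of 121.6, 78.8 and 32.5 in Med12 KO cells, against 290.6, 191.4 and 243.1 in control cells, a log2 difference of -1.57 (SE 0.40; limma adjusted p = 0.149). In both, all 3 Med12 KO arrays lay below all 3 control arrays. The fourth probe set had signals of 19.3 or less on every array and a difference of 0.12 (SE 0.33). These probe sets read 1 gene from the same RNA and are not separate replicates. The brightest one passed limma's test at an adjusted p of 0.0245 when the variance prior was trended and robust, and also with the dimmest 25% (0.0393) or the dimmer 50% (0.0339) of probe sets left out. The probe set at -1.10 passed without the dimmer 50% (0.0437). Leaving out any 1 of the 6 arrays gave adjusted p values of 0.102 to 0.175 for the brightest probe set, with differences of -1.43 to -1.16.

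**Figure D2:**
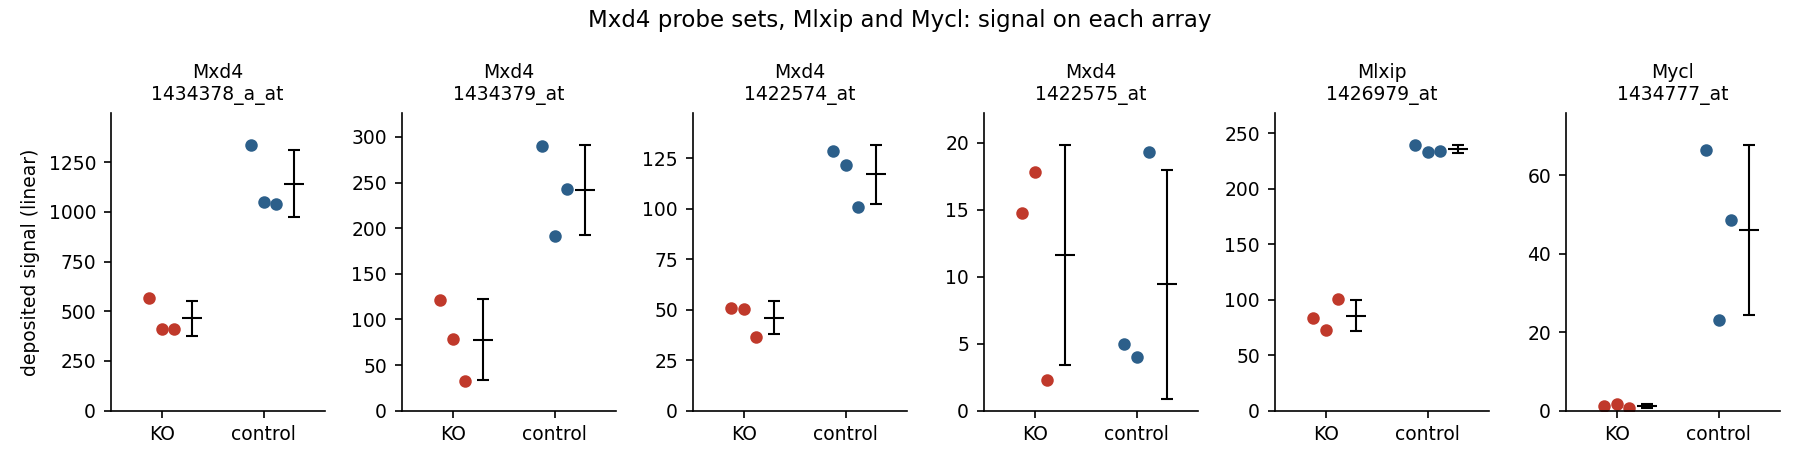
Deposited signal (linear scale, from 0) on each array for the 4 Mxd4 probe sets and the brightest probe sets of Mlxip and Mycl; red points are Med12 KO arrays, blue points control arrays, and black bars the mean ± SD of 3 arrays. In 3 of the 4 Mxd4 probe sets, in Mlxip and in Mycl the Med12 KO points all lie below the control points, and the fourth Mxd4 probe set has signals of 19.3 or less.

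Because Mxd4 had the lowest difference of the 10 genes, its change was also set against that of each other gene within the same array, where array scaling cancels apart from the added 16. This pairing was chosen after the values were seen and is a description without a test. Relative to Myc, log2 Mxd4 changed by -0.83 between Med12 KO and control cells. The change was -0.77 relative to Mnt, -1.34 relative to Max and -1.71 relative to Mlx. Over the 9 genes it ran from -1.71 to -0.42, the value relative to Mga. With Mxd4 chosen as the lowest of the 10 genes, all 9 changes had to be negative. That choice also favoured pairs whose groups lie apart, as in 7 of the 9, with overlap relative to Mycn and Mga. How often other pairs of genes lie apart was not analysed here.

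In the probe sets of Mxd1, Mxd3 and Mxi1 the groups overlapped throughout, and the lowest difference was -0.65. Mxi1, another MAX-binding repressor, had signals of 369.8, 255.5 and 210.9 in Med12 KO cells, against 694.9, 419.4 and 282.6 in control cells. The lowest control array lay among the Med12 KO arrays, and the log2 difference was -0.65 (SE 0.36; limma adjusted p = 0.462). Its other probe set, at -0.13 (SE 0.23), turned to 0.15 after median centring. Mxd1, a repressor known to be induced in maturing myeloid cells, had signals of 229.8, 178.6 and 219.1 in Med12 KO cells, against 165.2, 255.0 and 175.7 in control cells, and the groups overlapped. Its differences over 3 probe sets were 0.09 (SE 0.20), -0.31 (SE 0.31) and -0.12 (SE 0.22), none with an adjusted p under 0.70 in limma.

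Mxd3 differs from the other MXD genes in being known for expression in dividing cells, in the DNA synthesis phase. Its brightest probe set had signals of 486.8, 501.1 and 767.8 in Med12 KO cells, against 548.2, 634.0 and 316.2 in control cells. The highest array was Med12 KO replicate 3 and the lowest control replicate 3, and the others overlapped. The log2 difference was 0.25 (SE 0.31; limma adjusted p = 0.774) and turned to -0.04 without control replicate 3. The other probe sets were at 0.06 (SE 0.26) and -0.17 (SE 0.35).

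Mnt encodes a MAX-binding repressor that is present in most cells and opposes MYC there. Its brighter probe set had signals of 456.1, 523.5 and 398.6 in Med12 KO cells, against 644.4, 596.3 and 728.6 in control cells. The groups did not overlap, with means of 459 ± 62.5 and 656 ± 67.0 (SD, n = 3 each) and a log2 difference of -0.50 (SE 0.15; limma adjusted p = 0.204). It was lower under all 16 other settings, at -0.60 to -0.23. Its dim second probe set had signals of 29.7, 7.8 and 63.8 in Med12 KO cells, against 31.8, 50.2 and 53.1 in control cells, with overlap.

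Mga encodes a large MAX partner with a second, T-box type DNA-binding domain, and its 5 probe sets disagreed. The brightest had signals of 539.3, 347.3 and 429.8 in Med12 KO cells, against 590.0, 895.4 and 960.9 in control cells. All Med12 KO values lay below control, with means of 439 ± 96.3 and 815 ± 198 (SD, n = 3 each) and a log2 difference of -0.86 (SE 0.25; limma adjusted p = 0.190). A dimmer probe set, at 27.5, 32.4 and 71.2 in Med12 KO cells and 75.9, 99.1 and 97.4 in control cells, gave -0.90 (SE 0.29; limma adjusted p = 0.220). Another was nearly level, at 151.2 to 163.9 in Med12 KO cells and 151.2 to 170.0 in control cells, with a difference of -0.04 and a 95% interval from -0.32 to 0.24. The fourth varied from 29.0 to 247.9 within the Med12 KO group alone, and the fifth was at 17.1 or less on every array. Which transcripts each of them reads was not analysed here.

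**Figure D3:**
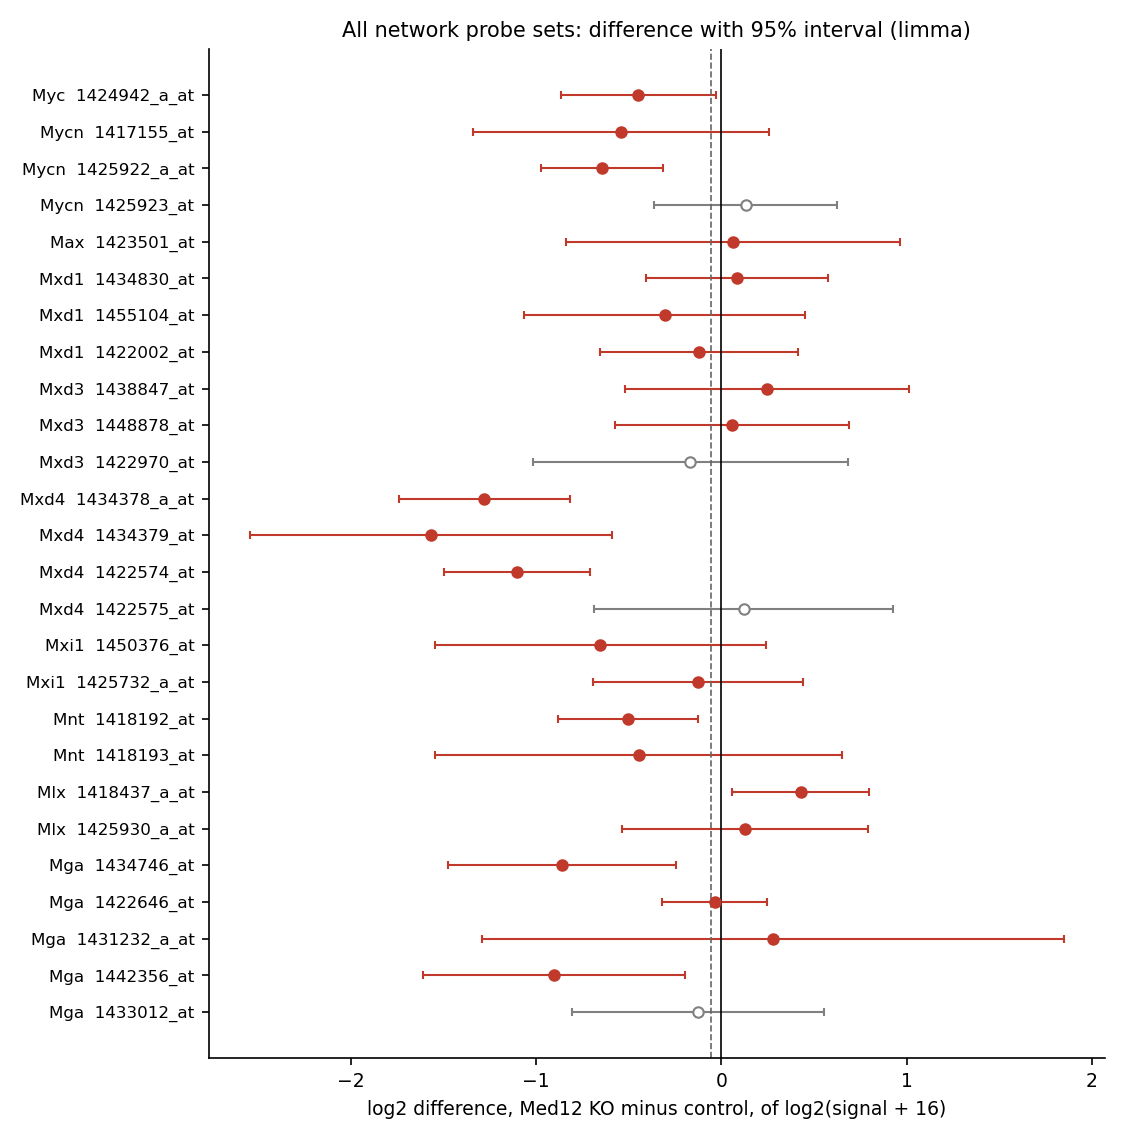
Log2 difference (Med12 KO minus control, of log2(signal + 16)) of all 26 network probe sets, with 95% intervals from limma; open grey symbols are the 4 probe sets with a mean signal under 16, the solid vertical line is at 0 and the dashed line at the median of all genes, -0.05. Mxd4 holds the lowest values in 3 probe sets. All intervals of Max, Mxd1, Mxd3 and Mxi1 include 0, as do those of some probe sets of Mycn, Mxd4, Mnt, Mlx and Mga.

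Mlxip, the glucose-sensing partner of Mlx also called MondoA, is a gene of the wider network, and it passed the test. It had signals of 83.5, 72.5 and 100.2 in Med12 KO cells, against 239.5, 232.8 and 234.2 in control cells. The control arrays were nearly equal and all well above the Med12 KO arrays. Mlxip fell to 85.4 ± 13.9 in Med12 KO cells, against 235.5 ± 3.53 in control cells (SD, n = 3 each). The log2 difference was -1.32 (SE 0.14; limma adjusted p = 0.0314), and 0.989% of all genes passed, 0.352% higher and 0.638% lower. The call was lost without any 1 of the 6 arrays (adjusted p = 0.0926 to 0.118), with 4 added (0.0618), after median centring (0.0565) and with a trended, robust prior (0.0542), while the difference stayed between -1.43 and -1.01. Mlxipl, the related sensor known from liver and fat, had signals of 1.4 or less on every array and a difference of -0.01.

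The targets of MYC give a second view of the network, through 35 measured genes of 36 listed that MYC proteins are known to activate. None passed limma's test, while 0.989% of all genes did. At an unadjusted p under 0.05 there were 12 higher and 1 lower, beside 7.84% and 10.3% of all genes. Most were higher in Med12 KO cells by small amounts: 28 were higher and 7 lower, beside 7678 higher and 10515 lower among all 18193 genes. After median centring, which also moved the median of all genes to 0.22, 33 were higher and 2 lower. These counts were 29 and 6 after quantile and 27 and 8 after loess normalization. With 1 array left out they ran from 25 and 10 to 31 and 4. All Med12 KO values lay above all control values for 17 and below them for 2, beside 9.85% and 13.6% of all genes. The median difference was 0.40, or 0.46 above the median of all genes and 0.35 above it after loess normalization. All 35 targets were among the brighter probe sets. Without the dimmer 50% of probe sets the median of all genes was 0.0006, and that of the targets lay 0.40 above it. Of those with a promoter window, 9 of 29 hold CACGTG, among them Nme1, Ldha, Hspd1 and Cdk4, beside 8.09% of all genes with one. Because the genes were listed as known MYC targets, this share describes the list and is no result of the arrays.

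Nolc1, a nucleolar chaperone of ribosome production, had signals of 1090.7, 1257.1 and 1330.4 in Med12 KO cells, against 616.4, 682.3 and 732.5 in control cells. The groups stood well apart, and the log2 difference was 0.84 (SE 0.14; limma adjusted p = 0.0721, or 0.0441 after median centring). Rcc1, which loads the transport GTPase Ran, had signals of 552.9, 495.1 and 672.8 in Med12 KO cells, against 329.9, 286.6 and 362.2 in control cells, a log2 difference of 0.78 (SE 0.17; limma adjusted p = 0.109). The pre-ribosomal RNA processing gene Rrp9 was at 0.65 (SE 0.14) and the nucleoside diphosphate kinase gene Nme1 at 0.60 (SE 0.14), also with groups that did not overlap. The 2 genes lying wholly below control were Tfap4, an E-box factor, at -0.45 (SE 0.20), and Prps2, of nucleotide synthesis, at -0.36 (SE 0.12), both chosen after their values were seen. For Tfap4 the groups nearly touched, with the highest Med12 KO array at 295.9 and the lowest control array at 296.2. Tfrc, the transferrin receptor, had the most positive difference, 1.08 (SE 0.52), with overlapping groups and a signal of 2141.8 on Med12 KO replicate 3 against 821.6 and 746.5 on the other two. It is also on the erythroid marker list below.

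Of 11 genes that MYC is known to repress, 0 passed limma's test; at an unadjusted p under 0.05 there were 3, all lower, beside 18.2% of all genes, 10.3% lower. The median was -0.27, or 0.22 below that of all genes. After median centring it was 0.00, where that of all genes was 0.22. Leaving out control replicate 1 gave -0.41, control replicate 2 gave -0.087 (only 0.033 below the median of all genes), control replicate 3 gave -0.14 and Med12 KO replicate 2 gave -0.17. Txnip, a brake on glucose uptake and a known target of MLXIP with MLX, had signals of 950.0, 655.1 and 696.8 in Med12 KO cells, against 1482.8, 2067.8 and 1620.1 in control cells. The groups were well apart, with a log2 difference of -1.16 (SE 0.21; limma adjusted p = 0.0819, or 0.0346 with a trended, robust prior). The cyclin G2 gene Ccng2, expressed in cells leaving the cycle, was at -0.89 (SE 0.23), and the antiproliferative gene Btg1 was at -0.78 (SE 0.23), both wholly below control. The p53 target Gadd45a was at 0.58 (SE 0.30) and overlapped.

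**Figure D4:**
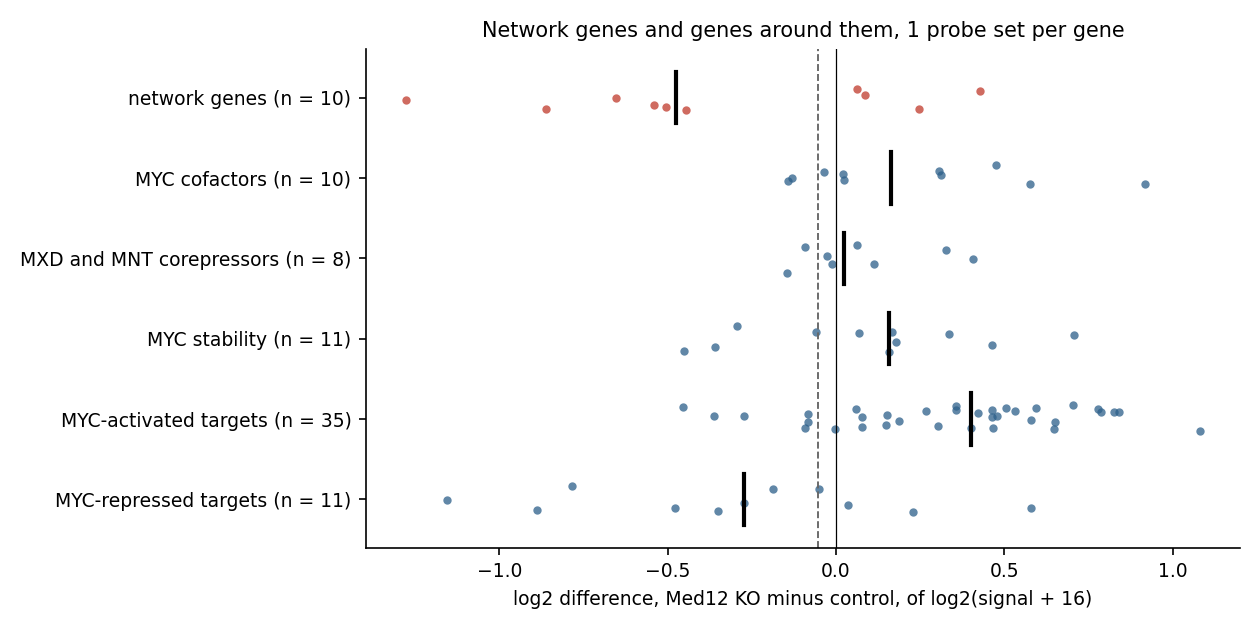
Log2 difference (Med12 KO minus control, of log2(signal + 16)) of each gene, 1 probe set per gene, for the 10 network genes (red) and for 5 lists of genes around them (blue); vertical jitter is only for legibility, black bars are list medians, the solid line is at 0 and the dashed line at the median of all genes, -0.05. The MYC-activated targets have a median of 0.40 and the MYC-repressed targets one of -0.27, while the network genes themselves have one of -0.48.

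Genes for the proteins that MYC and MXD factors recruit were read in the same way. Of 10 MYC cofactor genes 0 passed limma's test, and 2, or 20%, had an unadjusted p under 0.05, close to the 18.2% of all genes. Actl6a, an actin-like subunit of chromatin remodelling and acetylase complexes, had signals of 546.1, 536.9 and 648.2 in Med12 KO cells, against 342.2, 200.1 and 379.1 in control cells (log2 0.92; SE 0.25; limma adjusted p = 0.174). The ATPase gene Ruvbl2 was at 0.48 (SE 0.17), with its groups apart as well. Smarcb1 (0.58; SE 0.36) and the acetylase gene Kat5 (0.31; SE 0.22) overlapped. The cofactor median was 0.16, and 7 of the 10 were higher, or 5 after quantile or loess normalization. After median centring all 10 were higher, with a median of 0.44, beside 0.22 for all genes. The cofactor median ran from 0.13 to 0.30 with 1 array left out, and was 0.13 after quantile and 0.09 after loess normalization.

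Of 8 measured corepressor genes for MXD and MNT, 0 passed limma's test and 0 had an unadjusted p under 0.05. Their groups all overlapped, and their median was 0.02, with 4 higher and 4 lower. It was 0.30 after median centring, with all 8 higher, but the median of all genes was then 0.22. The corepressor median was -0.05 after loess normalization, and with 1 array left out it ran from -0.05 to 0.18. Sap30 was at 0.41 (SE 0.24), Suds3 at 0.33 (SE 0.33), the scaffold gene Sin3a at -0.14 (SE 0.18) and the deacetylase gene Hdac2 at 0.11 (SE 0.15). Of 11 measured genes that set the stability of the MYC protein, 0 passed limma's test and 2 had an unadjusted p under 0.05, the same 18.2% as of all genes. Their median was 0.16, or 0.43 after median centring (0.22 for all genes), and -0.012 to 0.20 with 1 array left out. The kinase gene Pim2, whose product stabilises MYC, had signals of 195.9, 221.9 and 205.6 in Med12 KO cells, against 108.0, 169.2 and 95.9 in control cells (log2 0.71; SE 0.21; limma adjusted p = 0.202). The kinase gene Aurka was at 0.46 (SE 0.18), wholly above control, the related kinase gene Pim1 was at -0.36 (SE 0.18), wholly below it, and the deubiquitinase gene Usp28, at -0.45 (SE 0.23), overlapped.

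Markers of blood lineages moved with these results, and in sorted bulk cells fewer cells of a type and less RNA per cell cannot be told apart. The summed signal of 9 granulocyte-monocyte progenitor genes was 931.1 to 1860.8 in Med12 KO cells and 8907.5 to 16662.5 in control cells. All 9 had Med12 KO values below control, beside 13.6% of all genes, and 6 fell, beside 0.638% of all genes. That of 10 early lymphoid genes was 575.4 to 1555.7 in Med12 KO cells and 4485.4 to 6788.9 in control cells. Of these, 6 fell, beside 0.638% of all genes, and 9 had all Med12 KO values below control, beside 13.6%. Dntt, Rag1, Rag2, Ccr7 and Ccr9 were under 16 on every Med12 KO array. The summed signal of 13 erythroid genes was 8919.5 to 13861 in Med12 KO cells and 3652.3 to 4483.7 in control cells. Of these, 7 rose, beside 0.352% of all genes, and 10 had all Med12 KO values above control, beside 9.85% of all genes. The probe set read for the globin gene Hba-a1 was at 2.5 or less on every array. Probe sets given to several symbols were not read and Hbb-b1 was not analysed, so this value does not give the level of globin RNA. The anion exchanger gene Slc4a1 had the opposite sign, at 11.8 to 13.9 in Med12 KO cells and 23.2 to 185.8 in control cells (log2 -1.60; SE 0.57; limma adjusted p = 0.260). The sums for 10 megakaryocyte genes were 6774.7 to 8630.5 and 3936.9 to 5846.2 in Med12 KO and control cells. Of these genes 1 rose, beside 0.352% of all genes, and 6 had all Med12 KO values above control, beside 9.85%. For 8 mast cell and basophil genes the sums were 2403.3 to 2713.1 and 1404.3 to 1818.4. Here too 1 rose, beside 0.352% of all genes, and 4 had all Med12 KO values above control, beside 9.85%. In that list the basophil gene Mcpt8 had the opposite sign, with means of 75.6 in Med12 KO cells and 199 in control cells (log2 -1.69; SE 0.66; limma adjusted p = 0.298) and overlapping groups. No marker was at 0 on any array. The part of these lineages in the differences of Mxd4, Mycl, Mlxip and the MYC targets was not tested.

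Genes whose pattern over the 6 arrays was most like that of Myc and of Mycn were taken by Pearson correlation of log2 values among 9388 genes with a mean signal of at least 50. With 6 arrays in 2 groups such a value mostly reflects the group difference and the shared arrays, and 213 genes had a value over 0.9 with Myc and 117 with Mycn. For Myc the 5 nearest were 5031425E22Rik (0.994), Vps35l (0.993), Gprc5b (0.993), Hilpda (0.986) and Tctex1d2 (0.986). For Mycn they were Ttf1 (0.996), Iftap (0.987), Il15ra (0.984), Dip2b (0.983) and 1500009L16Rik (0.982). All 10 had lower means in Med12 KO cells, from -0.24 for Vps35l to -2.30 for Gprc5b on the log2 scale, and none passed limma's test.

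**Figure D5:**
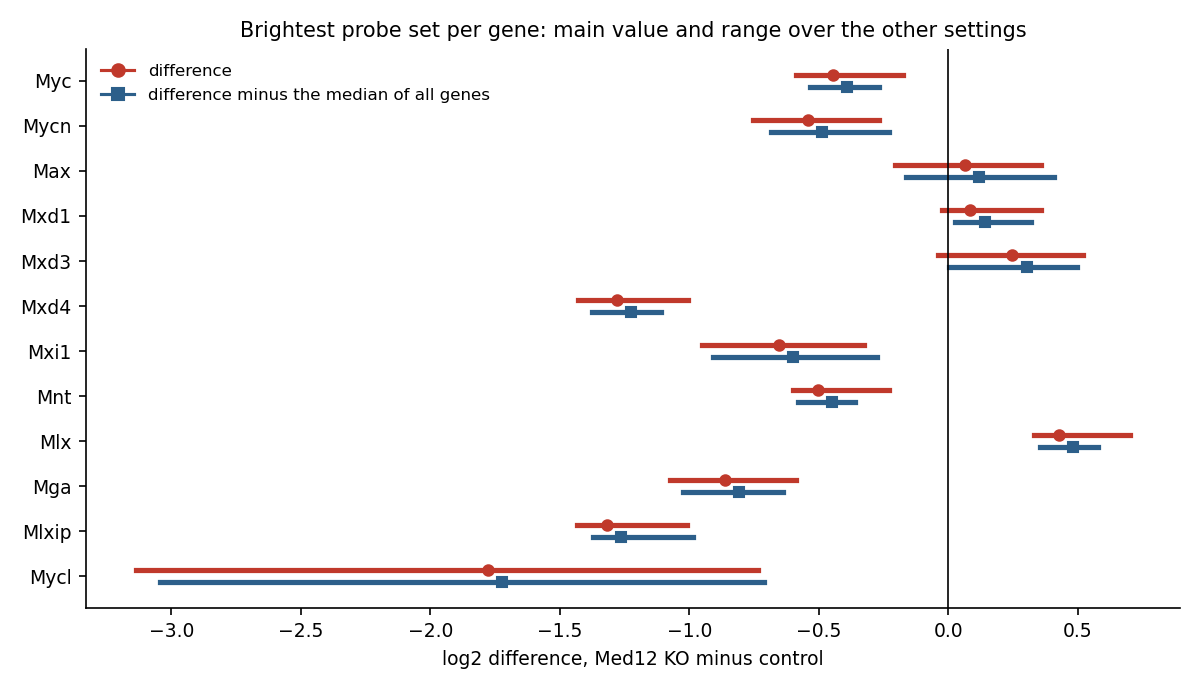
Log2 difference (Med12 KO minus control) of the brightest probe set of each network gene and of Mlxip and Mycl: symbols are the values as reported and lines the range over the other settings tried, as measured (red circles) and after subtracting the median of all genes (blue squares). Myc, Mycn, Mxd4, Mxi1, Mnt, Mga, Mlxip and Mycl stay below 0 and Mlx stays above 0 on both scales, while Max crosses 0 on both and Mxd1 and Mxd3 as measured.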

How the data were processed

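Per the labels' protocols, RNA of sorted cells was amplified with the Ovation system, and the biotin-labelled cDNA was hybridised to arrays. The authors deposited 1 linear intensity per probe set and array. The submitters' processing notes name RMA with no version, but the values are linear and include 0, which RMA does not give, so their method is not known here. The mean without 2% of probe sets at each end was 150 on every array. No depth applies, and the number of arrays limits the precision.

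Of 45101 probe sets 64 controls were left out. The platform annotation of 2016 gave 34945 probe sets 1 symbol, 932 several and 9160 none. All 10 members matched RefSeq by Entrez number. Log2(signal + 16) was fitted over all 45037 probe sets with lmFit and eBayes of limma 3.58.1 (R 4.3.3; two-sided moderated test, 4 residual degrees of freedom) and Benjamini-Hochberg adjustment, threshold 0.05. Genes were read through their probe set of highest mean. The steps were tested on simulated data.

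Members, lists, tests and the added 16 were chosen with earlier results of these data known. Named are Med12, all members, the wider network (Mycl, Mlxip, Mlxipl), from each list the 4 genes of lowest p and any that passed, and the 5 genes most like Myc and Mycn. Names outside this rule are marked, given as examples or as markers. Listed genes without a probe set of 1 symbol were not analysed here. All 6 columns were used (0 left out).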

Additional observations from a re-analysis of the deposited data

How the results depend on the processing

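Alternatives were other added numbers, 3 normalizations, filters on dim probe sets, array weights, a trended and robust prior, a looser threshold, a replicate block, each array left out, and each gene's probe sets averaged. Network probe sets past limma's threshold numbered 1 without the dimmest 25% of probe sets, 2 without the dimmer 50%, 1 with the trended, robust prior and 2 at a threshold of 0.10, all of Mxd4. Without any 1 array they numbered 0. There 6 to 9 of the 26 had an unadjusted p under 0.05, or 23.1% to 34.6%, beside 11.9% to 15.9% of all probe sets. All probe sets past it numbered 343, against 693 after median centring, 712 and 763 under the 2 filters, 1159 at 0.10 and 0 to 10 with 1 array left out. After median centring 62.2% of calls were higher in Med12 KO cells, and after quantile normalization 43.0%, beside 28.9% as deposited. Same-numbered arrays did not deviate together (r = 0.02, 0.02 and 0.00), and no array correlated best with its own number. With a replicate block, limma called 0 probe sets, and Mlxip had an adjusted p of 0.156. At an unadjusted p under 0.05 there were then 6752, or 15.0%, with 8 of the 26 in the network, or 30.8%. The network median was -0.20 after median centring, -0.34 with the mean of probe sets and -0.54 to -0.34 with 1 array left out. MYC-activated targets past the threshold numbered 1 after median centring and 1 at 0.10 (Nolc1). MYC-repressed targets numbered 1 with the trended prior (Txnip), 1 with the mean of probe sets (Ccng2) and 1 at 0.10 (Txnip).

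Of the 26 probe sets, 12 kept their sign throughout and 14 turned under some setting; in the settings where the sign turned, the lowest adjusted p was 0.392. After median, quantile and loess normalization the dimmest Mxd1 probe set turned to 0.15, 0.15 and 0.10, the dimmest of Mxd3 to 0.11, 0.019 and 0.010, and the dimmest of Mga to 0.15, 0.028 and 0.020. The level Mga probe set turned to 0.24 and 0.034 after median centring and quantile normalization, the second of Mxi1 to 0.15 after median centring, and the second of Mxd3 to -0.0081 with array weights. With 1 array left out the ranges were -0.032 to 0.28 for the dimmest Mycn probe set, -0.21 to 0.36 for Max, -0.025 to 0.27 and -0.26 to 0.045 for the brightest and dimmest of Mxd1, and -0.041 to 0.44, -0.10 to 0.28 and -0.40 to 0.16 for the 3 of Mxd3. They were -0.049 to 0.39 for the dimmest of Mxd4, -0.32 to 0.056 for the second of Mxi1, -0.87 to 0.0034 for the second of Mnt, -0.034 to 0.42 for the second of Mlx, and -0.36 to 0.91 and -0.39 to 0.052 for the most variable and the dimmest of Mga. Causes of these changes were not tested. Signals under 16, which made up 45.5% to 49.5% of probe sets on Med12 KO arrays and 41.6% to 42.3% on control arrays, limit what can be seen of dim genes.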
